A study of Mus musculus with 9 samples.

Results

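Matrix metalloproteinases (MMPs), ADAM and ADAMTS proteases and the inhibitors of these enzymes, TIMP1 to TIMP4 and RECK, were followed in mouse embryonic fibroblasts (MEFs) of 3 genotypes, with 3 Affymetrix Gene ST arrays of each. The list holds 43 genes of these families, and it does not hold all of their genes. A gene was measured where a probe set carried its symbol alone, and the brightest such probe set over the 9 arrays was used. This gave 42 of the 43 genes, among 19938 genes in all, while Mmp15 was not analysed here. All levels below are RMA values on the log2 scale, so that a difference of 1 is a doubling, and levels of different genes are not compared because each probe set has its own brightness.

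The labels name the reference cells wild type (WT), the second group double mutant for ERO1alpha and beta (DM) and the third the same double mutant with PRDX4 KO (TM), all on a C57B/L6 background. ERO1α, ERO1β and PRDX4 are enzymes of the endoplasmic reticulum that start the relay by which disulfide bonds are made in secreted proteins. In the study's methods DM MEFs are homozygous for mutant alleles of Ero1α and Ero1β, and TM MEFs also lack the X-linked Prdx4. The same methods give the control MEFs as heterozygous for the Ero1α allele and homozygous for the Ero1β allele. The arrays labelled wild type may thus share the Ero1β mutation with the mutants. For these controls the methods also write Prdx4 as +/+, the form that the study uses for females. The WT arrays had the pattern of male cells, as described below. Whether these controls were the cells on the arrays is therefore not settled. The cells of all 9 arrays are taken here as transformed with T antigen, which inactivates P53 and RB. The study's methods, however, describe primary MEFs for some figures and MEFs immortalized with T antigen for others. They do not say which were used on the arrays, so the state of P53 and RB is not settled. No source used here says how many embryos or cultures stood behind each genotype, so a difference between genotypes and a difference between cultures cannot be told apart, and the p-values rest on the spread between arrays alone, which may be technical.

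MMPs are zinc-dependent endopeptidases that cleave collagens, gelatins, proteoglycans and many non-matrix proteins, and they are made as inactive proenzymes. TIMPs are secreted proteins that block the active site of MMPs and of some ADAMs, and RECK is a membrane-anchored MMP inhibitor. ADAMs are transmembrane proteases that shed the extracellular parts of growth factors, receptors and adhesion molecules, while ADAMTS enzymes are secreted and cleave large proteoglycans and other matrix proteins. Fibroblasts make many of these enzymes and most of their inhibitors, and through them they turn over the matrix that they lay down. The study asked why loss of these thiol oxidases is costly to the animal, and the arrays address which mRNAs differed between the genotypes.

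Among the 42 genes DM MEFs had 11 higher and 7 lower than WT MEFs, 12 were higher and 5 lower in TM than in WT, and 8 were higher and 6 lower in TM than in DM. The call required an adjusted p under 0.05 from limma, with Benjamini-Hochberg adjustment over all 19938 genes, and a change over 1.5-fold, which is 0.58 on the log2 scale. Over all genes 10.9% were called in DM against WT (5.28% higher and 5.67% lower), 9.15% in TM against WT (5.59% higher and 3.56% lower) and 8.29% in TM against DM (4.68% higher and 3.61% lower). The shares among the proteases and inhibitors were 42.9%, 40.5% and 33.3%. Of the 42 genes, 34 lay above the array median on at least 1 of the 9 arrays, against 11921 of the 19938, and among these 34 the shares called were 50%, 50% and 38.2%, beside 17.2%, 13.9% and 12.9% of the 11921. The list was drawn up with earlier results of these arrays known, so these shares describe it and are not a test of it. Of 20 further measured genes of the same families, 13 were at or under the array median on all 9 arrays. The shares called among these 20 were 10% in DM against WT, 15% in TM against WT and 20% in TM against DM. Against WT, the 42 genes had a median log2 fold change of 0.066 in DM and 0.099 in TM, beside 0.025 and -0.029 over all genes.

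**Figure D1:**
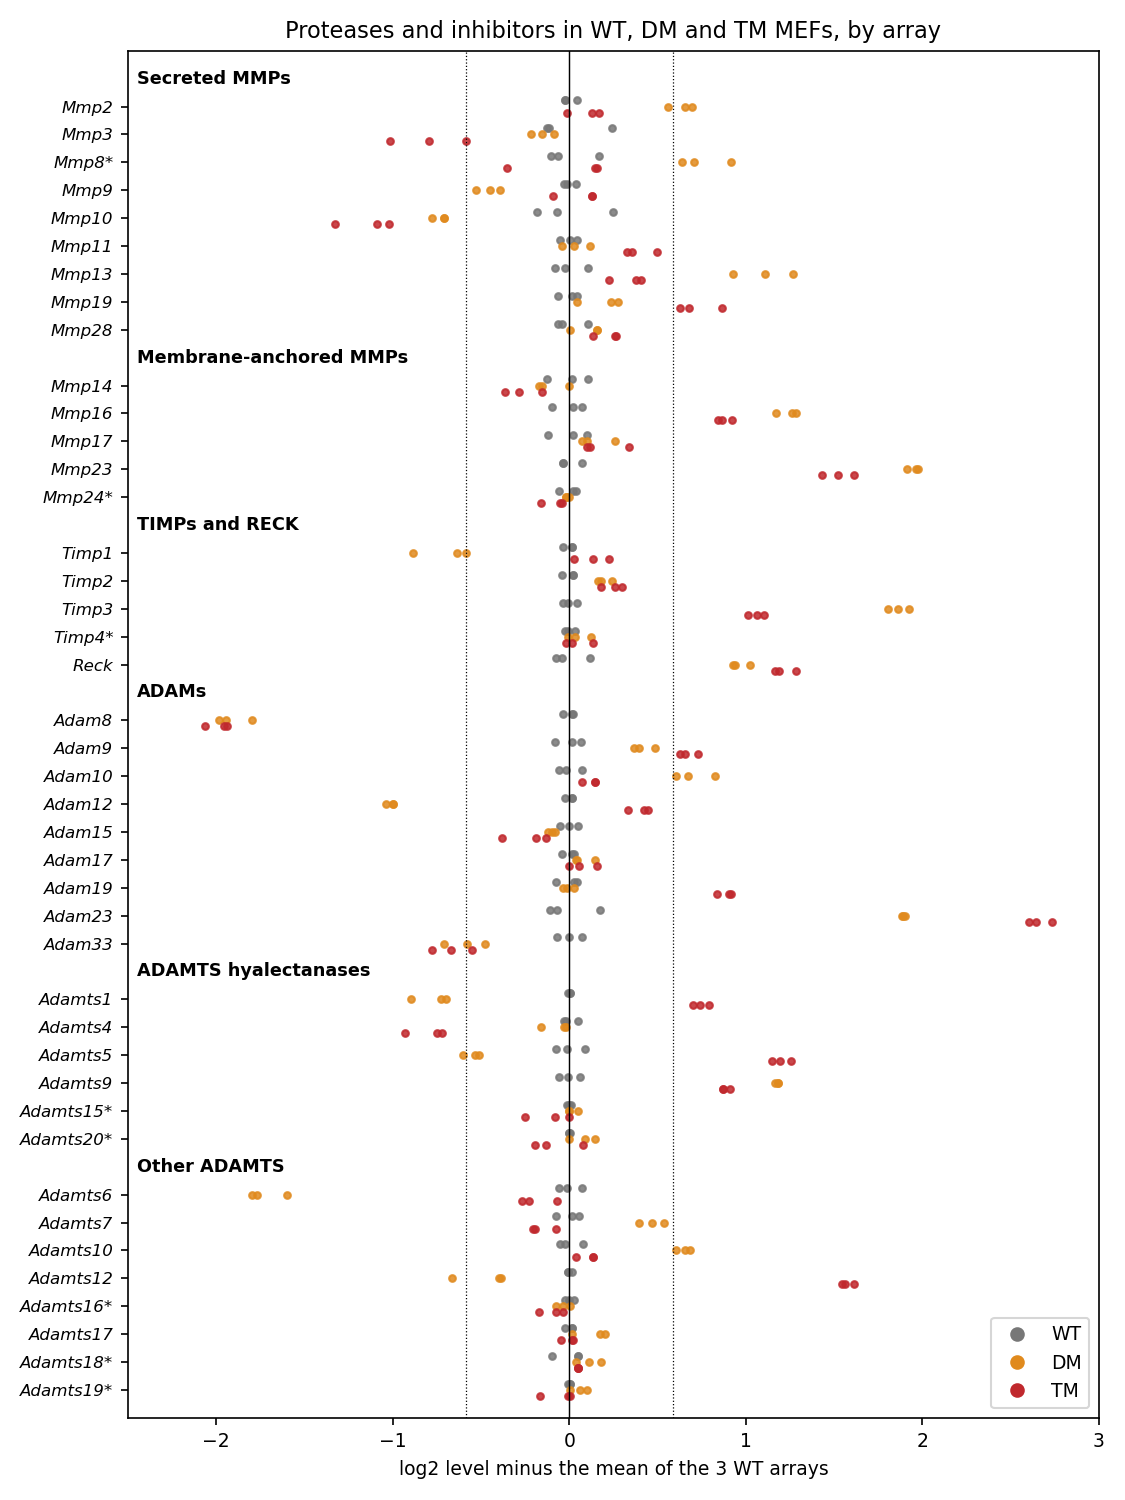
Level of each of the 42 measured genes on each array, as the difference from the mean of its 3 WT arrays on the log2 scale, by class (WT grey, DM orange, TM red, 3 arrays each). Dotted lines mark the 1.5-fold limit at 0.58 and an asterisk marks the 8 genes at or under the array median on all 9 arrays. Adam23 lies farthest to the right, at 2.66 in TM, and Adam8 farthest to the left, at -1.91 in DM and -1.99 in TM.

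Among the targeted genes, Ero1a had a mean log2 level of 11.86 in WT, 9.46 in DM and 9.06 in TM, and Prdx4 of 10.56, 10.68 and 6.30, both low where the labels say so. Ero1b was at 7.65 ± 0.11 in WT, 7.70 ± 0.023 in DM and 7.94 ± 0.081 in TM (mean ± SD, n = 3 arrays), not lower in the mutants, so its probe set does not check the Ero1β label. Of the fibroblast markers, Vim and Col1a1 were at 14.18 and 11.84 in WT and above the array median on all 9 arrays, whereas Thy1 was above it on 6 and Lum on none of the 9. Of 12 fibroblast markers 2 were higher in DM than in WT, Pdgfrb at 1.18 and Dcn at 1.14 on the log2 scale. The 3 lower in DM were S100a4 at -2.28, Pdgfra at -1.91 and Col1a2 at -1.71. Against WT 4 were higher in TM, namely Thy1 at 2.93, Lum at 2.06, Dcn at 1.83 and Pdgfrb at 1.23. The 1 lower in TM was S100a4 at -1.46. Of 12 epithelial and mesothelial markers 7 were higher and 1 lower in DM, with Upk3b at 5.07, Lrrn4 at 4.12 and Wt1 at 4.05 but Msln at -1.43. In TM 0 were higher, by limma at an adjusted or unadjusted p, and 2 were lower, Msln at -3.61 and Krt19 at -1.81. The mean log2 level over the list was 7.83 to 7.86 on the WT arrays, 9.23 to 9.29 on the DM arrays and 7.32 to 7.40 on the TM arrays. TM MEFs had 4 of 9 markers of smooth muscle and pericytes higher than WT, and the list's mean level was 9.07 to 9.13 in WT, 8.75 to 8.87 in DM and 10.10 to 10.17 in TM. Of 12 leukocyte markers 10 were at or under the array median on all 9 arrays, Ptprc, Mpo and Elane among them, and so were all 8 endothelial markers measured. Xist was at 12.56 in DM against 5.70 in WT and 5.72 in TM, and the Y-linked Kdm5d at 7.41 against 8.91 and 8.88. This is the pattern of female cells in DM and of male cells in WT and TM, so sex and the DM genotype cannot be told apart. The part of these differences in the results on proteases was not tested. In such bulk RNA, fewer cells of a type and less RNA per cell cannot be told apart.

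Among the 9 secreted MMPs, the collagenase gene Mmp13 rose in DM MEFs, the stromelysin gene Mmp10 fell in both mutants and the stromelysin gene Mmp3 fell in TM. Mmp13, whose product cleaves fibrillar collagens, was at 8.01, 7.82 and 7.88 on the WT arrays, 8.83, 9.17 and 9.01 on the DM arrays and 8.28, 8.13 and 8.31 on the TM arrays. All DM arrays lay above all TM arrays and these above all WT arrays. Its log2 fold change was 1.10 (SE 0.089, adjusted p = 7.06e-07 from limma) in DM, which is 2.14-fold, while 0.34 in TM stayed under the fold limit, and TM was below DM by a log2 fold change of -0.76 (adjusted p = 2.57e-05 from limma).

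Mmp10 was at 8.20, 8.52 and 8.09 on the WT arrays, 7.49, 7.56 and 7.56 on the DM arrays and 6.94, 7.25 and 7.18 on the TM arrays. Its product degrades proteoglycans and fibronectin and can activate other MMPs. The WT arrays were the highest and the TM arrays the lowest, with no overlap. Only the WT arrays lay above the array median, while all DM and TM arrays lay under it. The log2 fold change of Mmp10 against WT was -0.73 in DM (SE 0.11, adjusted p = 1.26e-04 from limma). In TM it was -1.15 (SE 0.11, adjusted p = 2.79e-06 from limma). Mmp3, whose product has a similar range of substrates, was at 8.70, 9.06 and 8.69 on the WT arrays, 8.73, 8.60 and 8.66 on the DM arrays and 8.02, 7.80 and 8.23 on the TM arrays. DM arrays overlapped with WT arrays and TM arrays lay below both. The log2 fold change of Mmp3 in TM was -0.80 against WT (SE 0.12, adjusted p = 1.52e-04 from limma) and -0.65 against DM (adjusted p = 8.52e-04 from limma), the latter at -0.54 and under the fold limit without TM replicate 2.

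Mmp3, Mmp10 and Mmp13 lie in 1 cluster of MMP genes on mouse chromosome 9, in the RefSeq order Mmp13, Mmp12, Mmp1b, Mmp3, Mmp1a, Mmp10, Mmp8, Mmp27, Mmp20 and Mmp7. These genes did not move as a block. Mmp8, which encodes the neutrophil collagenase, was under the array median on all 9 arrays, at 5.26 ± 0.15 in WT, 6.02 ± 0.15 in DM and 5.25 ± 0.29 in TM (mean ± SD, n = 3 arrays), and its call in DM, at a log2 fold change of 0.75 (adjusted p = 4.80e-04 from limma), is one of a dim probe set. The other 6 genes of the cluster were dim too and had no call, with log2 fold changes from -0.52 for Mmp1b to 0.42 for Mmp27, both in DM.

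**Figure D2:**
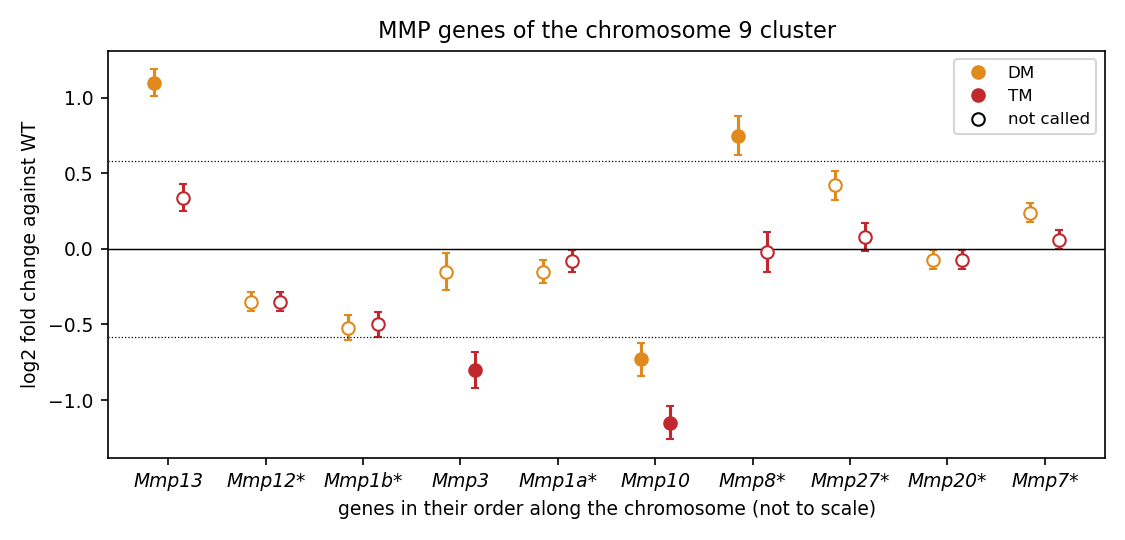
Log2 fold change against WT (y axis, with its standard error from limma) of the 10 MMP genes of the chromosome 9 cluster, in their order along the chromosome, in DM (orange) and TM (red) MEFs. Filled points were called, dotted lines mark the 1.5-fold limit and an asterisk marks genes at or under the median of all 9 arrays. Mmp13 and Mmp8 lie above the limit in DM, and Mmp10 lies below it in both mutants.

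The promoters of the 3 brighter genes of the cluster are shown because they share a pair of motifs that few promoters hold. Each line gives the 150 bases before the annotated start in GRCm38.p6 (RefSeq), 5′ to 3′ on the gene's own strand, with capitals for an AP-1 motif (TGANTCA, which reads the same on both strands) and for a TATA box (TATAAA, on the gene's strand only). AP-1 is a transcription factor made of FOS and JUN subunits, known for its action on MMP genes.
Mmp13, chr9:7272364-7272513, plus strand: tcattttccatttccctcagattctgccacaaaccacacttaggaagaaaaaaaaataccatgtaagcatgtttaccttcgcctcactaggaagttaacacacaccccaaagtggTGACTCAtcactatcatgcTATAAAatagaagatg
Mmp3, chr9:7445672-7445821, plus strand: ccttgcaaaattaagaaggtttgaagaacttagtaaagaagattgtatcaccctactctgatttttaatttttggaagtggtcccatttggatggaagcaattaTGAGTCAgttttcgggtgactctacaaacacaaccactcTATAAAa
Mmp10, chr9:7502192-7502341, plus strand: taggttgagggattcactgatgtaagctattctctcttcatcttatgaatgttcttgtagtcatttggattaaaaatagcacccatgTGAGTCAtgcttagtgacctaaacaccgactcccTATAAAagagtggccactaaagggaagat

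In the 250 bases before the start, 6.75% of the 32851 RefSeq promoter windows hold the AP-1 motif, 7.59% the TATA box and 0.791% both, with no overlap of the 2 motifs in the sequences shown. Counted by gene, where any window of a gene may hold the motif, 7.82% of 27025 genes hold the AP-1 motif and 8.94% the TATA box. Of the 27 listed genes with a window, 4 hold the AP-1 motif (Mmp3, Mmp10, Mmp13 and Adam19), 4 the TATA box (Mmp3, Mmp10, Mmp13 and Adamts1) and 3 both. Motifs are given for listed genes only, so not for the genes of the cluster outside the list. The share of promoters with both motifs was counted by window and not by gene. The AP-1 motif begins at position -35 from the start in Mmp13, -46 in Mmp3 and -63 in Mmp10. The TATA box begins at -16, -7 and -29 in the same order. All these positions rest on the annotated starts, which were not checked. The motifs describe these sequences and do not show binding. The mRNAs of AP-1 subunits were listed beside them, and of the 7 measured 3 were lower in DM than in WT. Their log2 fold changes were -0.99 for Jun, -0.96 for Fosl1 and -0.59 for Fosb. Without WT replicate 2, WT replicate 3 or DM replicate 3 the count of lower subunits was 2. In TM against WT the 7 lay between -0.45 for Fosb and 0.41 for Fos with no call, and Jun and Fosl1 were higher in TM than in DM by 0.73 and 0.69. In DM against WT, Mmp13 had a log2 fold change of 1.10, Mmp10 of -0.73 and Mmp3 of -0.15, the last without a call. A link between the AP-1 subunits and these 3 genes was not tested.

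The gelatinase gene Mmp2, whose product degrades denatured collagen and basement membrane collagen, rose in DM by 0.64 on the log2 scale (SE 0.066, adjusted p = 7.02e-06 from limma). It was at 11.90, 11.97 and 11.90 on the WT arrays, 12.58, 12.48 and 12.62 on the DM arrays and 12.09, 12.05 and 11.91 on the TM arrays, so that DM stood above both others and TM overlapped with WT. With the arrays centred on their medians the rise was 0.56, under the fold limit. Its log2 fold change of -0.54 in TM against DM was under the fold limit too, and was called without DM replicate 2 (-0.59). Mmp9, the other gelatinase gene, was at 7.89 ± 0.037 in WT, 7.43 ± 0.069 in DM and 7.94 ± 0.13 in TM, and its log2 fold change of -0.46 in DM did not reach the fold limit. Mmp19, which encodes a protease of basement membrane proteins, rose in TM by 0.73 (SE 0.079, adjusted p = 1.26e-05 from limma), from 9.34, 9.42 and 9.45 in WT to 10.27, 10.03 and 10.08. TM was above DM by 0.54, under the fold limit, with a call without TM replicate 2 (0.59). Mmp11, the stromelysin-3 gene, had a log2 fold change of 0.39 in TM and Mmp28, the epilysin gene, of 0.22, both under the fold limit.

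Of the membrane-anchored MMPs, 2 of the 5 measured rose in both mutants and the others had no call. Mmp23, which encodes a type II membrane protease, was at 7.36, 7.47 and 7.36 on the WT arrays, 9.37, 9.31 and 9.36 on the DM arrays and 9.01, 8.92 and 8.83 on the TM arrays. The WT arrays lay below the array median and all 6 mutant arrays above it, with a log2 fold change of 1.95 in DM (SE 0.063, adjusted p = 1.08e-10 from limma) and 1.53 in TM (SE 0.063, adjusted p = 1.31e-09 from limma), or 3.86-fold and 2.88-fold. Mmp16, which encodes MT3-MMP, an activator of pro-MMP2, was at 8.57, 8.62 and 8.45 on the WT arrays, 9.72, 9.81 and 9.83 on the DM arrays and 9.41, 9.39 and 9.47 on the TM arrays. It rose by 1.24 in DM (SE 0.062, adjusted p = 7.38e-09 from limma) and 0.88 in TM (SE 0.062, adjusted p = 2.36e-07 from limma). Both genes were higher in DM than in TM on all arrays, though their log2 fold changes of -0.43 for Mmp23 and -0.37 for Mmp16 between TM and DM were under the fold limit. Mmp14, which encodes MT1-MMP, the main pericellular collagenase of fibroblasts, was at 11.61 ± 0.11 in WT, 11.50 ± 0.091 in DM and 11.34 ± 0.11 in TM, with a log2 fold change of -0.27 in TM. Mmp17 and the dim Mmp24 had log2 fold changes from -0.08 to 0.19 against WT.

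Of the 5 inhibitor genes, Timp3 and Reck rose in both mutants, Timp1 fell in DM, and Timp2 and Timp4 had no call. Timp3, whose product binds to the matrix and inhibits ADAM17 and several ADAMTS enzymes as well as MMPs, was at 11.38, 11.33 and 11.30 on the WT arrays, 13.20, 13.26 and 13.14 on the DM arrays and 12.35, 12.44 and 12.40 on the TM arrays. The 3 genotypes formed separate steps. Timp3 rose by 1.87 in DM (SE 0.057, adjusted p = 6.76e-11 from limma) and 1.06 in TM (SE 0.057, adjusted p = 1.68e-08 from limma), or 3.65-fold and 2.09-fold, and was lower in TM than in DM with a log2 fold change of -0.81 (adjusted p = 2.58e-07 from limma).

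Reck was at 8.26, 8.29 and 8.45 on the WT arrays, 9.27, 9.26 and 9.36 on the DM arrays and 9.50, 9.52 and 9.62 on the TM arrays. It rose by 0.96 in DM (SE 0.067, adjusted p = 1.62e-07 from limma) and 1.21 in TM (SE 0.067, adjusted p = 2.00e-08 from limma), and here TM stood highest. Timp1, whose product inhibits most secreted MMPs, was at 13.14, 13.19 and 13.19 on the WT arrays, 12.54, 12.29 and 12.59 on the DM arrays and 13.40, 13.31 and 13.20 on the TM arrays. All DM arrays lay below the others, with a log2 fold change of -0.70 against WT (SE 0.081, adjusted p = 2.06e-05 from limma), and TM was higher than DM by 0.83 (adjusted p = 5.79e-06 from limma). Timp1 is X-linked, lying within the span of Syn1, and the DM arrays are those with high Xist. High Xist and the DM genotype cannot be told apart on these arrays, and a part of either in the fall of Timp1 was not tested. Timp2, whose product both inhibits MMPs and takes part in the activation of pro-MMP2 by MT1-MMP, was at 12.48 ± 0.032 in WT, 12.67 ± 0.041 in DM and 12.73 ± 0.058 in TM. Timp4 was dim on all 9 arrays, with levels from 5.96 to 6.12.

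**Figure D3:**
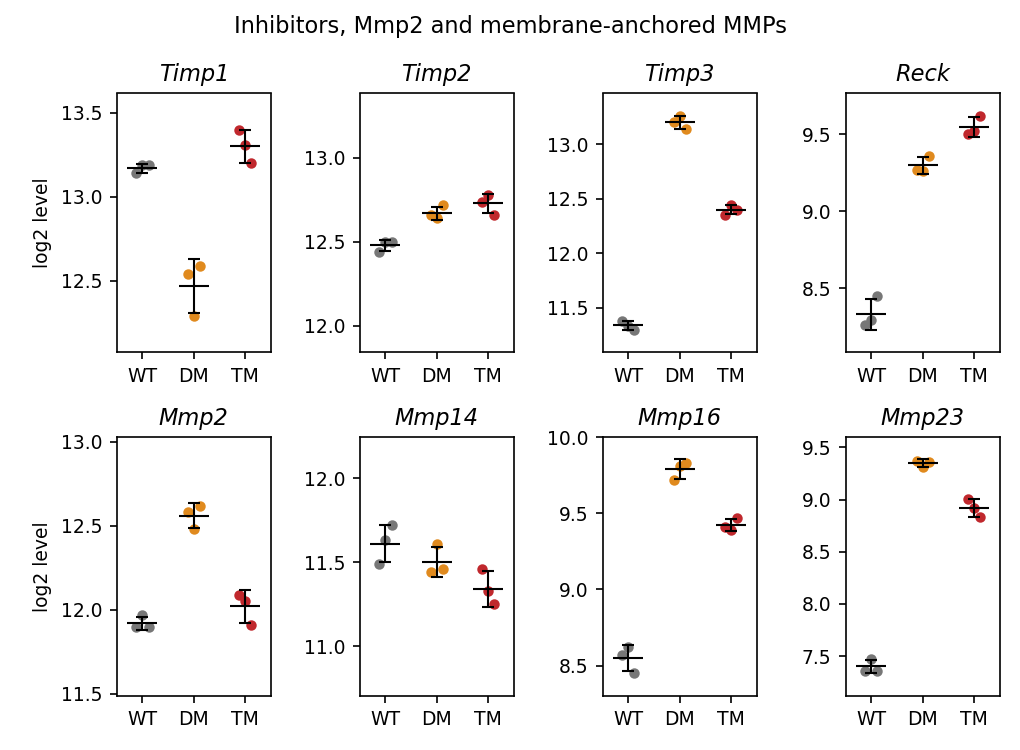
Log2 levels of 4 inhibitor genes, Mmp2 and 3 membrane-anchored MMP genes in WT (grey), DM (orange) and TM (red) MEFs. Each point is 1 array, with the mean as a horizontal mark and the SD as error bar (n = 3 arrays of each genotype), and each panel has its own y axis that does not start at 0. Timp3, Mmp16 and Mmp23 are highest in DM, Reck is highest in TM and Timp1 is lowest in DM.

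Of the 9 ADAM genes, 2 rose and 3 fell in DM, and 3 rose and 2 fell in TM. The largest rise of the whole list was that of Adam23, whose product lacks protease activity and binds integrins and the secreted LGI proteins. It was at 6.63, 6.59 and 6.87 on the WT arrays, 8.58, 8.60 and 8.59 on the DM arrays and 9.34, 9.30 and 9.43 on the TM arrays. The WT arrays were below the array median and the mutants formed 2 separate steps above it. Adam23 rose by 1.89 in DM (SE 0.074, adjusted p = 7.38e-10 from limma) and 2.66 in TM (SE 0.074, adjusted p = 3.95e-11 from limma), or 3.71-fold and 6.33-fold, and TM was above DM by 0.77 (adjusted p = 4.78e-06 from limma). Adam22, which encodes a related protein without protease activity and was listed among the family genes outside the 43, had log2 fold changes of 0.82 in DM and 0.92 in TM, both called, though it was dim on all 9 arrays.

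Adam8, which encodes a sheddase best known from leukocytes, was at 9.84, 9.79 and 9.85 on the WT arrays, 7.88, 8.03 and 7.84 on the DM arrays and 7.87, 7.89 and 7.76 on the TM arrays. The mutant arrays overlapped with each other and lay far below WT, with log2 fold changes of -1.91 in DM (SE 0.066, adjusted p = 2.01e-10 from limma) and -1.99 in TM (SE 0.066, adjusted p = 1.75e-10 from limma), so that WT was 3.76-fold and 3.96-fold higher. Of the 12 leukocyte markers 0 were called in any of the comparisons, with the 1.5-fold limit and a p under 0.05, adjusted or unadjusted, by limma or by a test of each gene on its own. However, 10 of the 12 were at or under the array median on all 9 arrays, where a fall could hardly be called. The part of leukocytes in the fall of Adam8 was not tested. Adam33 also fell in both mutants, with log2 fold changes of -0.59 in DM (adjusted p = 5.29e-05 from limma) and -0.67 in TM (adjusted p = 2.08e-05 from limma). Its DM value lies at the fold limit and was not called without WT replicate 3 (-0.55), without DM replicate 3 (-0.53) or with array weights (-0.57).

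Adam12, whose product sheds EGF receptor ligands and cleaves IGF binding proteins, fell in DM and was higher in TM. Its levels were 9.07, 9.11 and 9.11 on the WT arrays, 8.10, 8.10 and 8.06 on the DM arrays and 9.52, 9.54 and 9.43 on the TM arrays. The log2 fold change was -1.01 in DM (SE 0.054, adjusted p = 1.41e-08 from limma), 0.40 in TM, under the fold limit, and 1.41 in TM against DM (SE 0.054, adjusted p = 7.44e-10 from limma). Adam19, which encodes a protease that cleaves neuregulin, was at 10.11, 10.23 and 10.21 in WT and 10.21, 10.17 and 10.15 in DM, and at 11.09, 11.10 and 11.02 in TM. It rose in TM by 0.89 against WT (SE 0.057, adjusted p = 9.21e-08 from limma) and by 0.89 against DM (adjusted p = 1.02e-07 from limma).

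The main constitutive sheddases changed little or in 1 mutant. Adam10, whose product cleaves Notch and cadherins, rose by 0.70 in DM (SE 0.067, adjusted p = 3.39e-06 from limma), from 11.22, 11.09 and 11.13 in WT to 11.75, 11.82 and 11.97, and was at 11.22, 11.29 and 11.29 in TM. Its log2 fold change of -0.58 in TM against DM fell just short of the fold limit, and it was called in 6 of the alternatives, at -0.59 to -0.63, which were quantile and cyclic loess normalization and leaving out DM replicate 1, DM replicate 2, TM replicate 2 or TM replicate 3. Adam17, which encodes the TNF-α converting enzyme, was at 10.69 ± 0.037 in WT, 10.77 ± 0.061 in DM and 10.76 ± 0.081 in TM, with log2 fold changes of 0.07 in each mutant. Adam9 rose by 0.67 in TM (adjusted p = 3.28e-06 from limma) and had a log2 fold change of 0.42 in DM, and Adam15 was at -0.10 in DM and -0.23 in TM without a call.

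Among the ADAMTS hyalectanases, which cleave versican, aggrecan and related proteoglycans, Adamts1 was the gene of the whole list with calls in opposite directions in the 2 mutants. It was at 10.92, 10.93 and 10.93 on the WT arrays, 10.20, 10.03 and 10.23 on the DM arrays and 11.72, 11.67 and 11.63 on the TM arrays. The log2 fold change was -0.78 in DM (SE 0.063, adjusted p = 7.25e-07 from limma), 0.74 in TM (SE 0.063, adjusted p = 1.22e-06 from limma) and 1.52 in TM against DM (SE 0.063, adjusted p = 1.46e-09 from limma), or 2.86-fold between the mutants.

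Adamts5, the next protein-coding gene on chromosome 16 and the gene of a major aggrecanase, had the same order. It was at 10.33, 10.27 and 10.43 on the WT arrays, 9.83, 9.74 and 9.81 on the DM arrays and 11.49, 11.54 and 11.60 on the TM arrays. It rose by 1.20 in TM (SE 0.062, adjusted p = 1.05e-08 from limma), and its log2 fold change of -0.55 in DM (adjusted p = 1.51e-05 from limma) fell just short of the fold limit, which it passed with the arrays centred on their medians (-0.62) and without WT replicate 2 (-0.59). TM was higher than DM by 1.75 (SE 0.062, adjusted p = 3.53e-10 from limma), or 3.37-fold. Adamts4, the gene of the other classical aggrecanase, went the other way in TM. It was at 9.46, 9.45 and 9.53 on the WT arrays, 9.46, 9.45 and 9.32 on the DM arrays and 8.73, 8.76 and 8.55 on the TM arrays, with a log2 fold change of -0.80 in TM against WT (SE 0.070, adjusted p = 1.53e-06 from limma) and -0.73 against DM (adjusted p = 4.07e-06 from limma).

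Adamts9, which encodes a proteoglycan-degrading enzyme needed in development, rose in both mutants. It was at 9.14, 9.07 and 9.02 on the WT arrays, 10.24, 10.26 and 10.26 on the DM arrays and 9.95, 9.99 and 9.95 on the TM arrays, with a rise of 1.18 in DM (SE 0.055, adjusted p = 3.54e-09 from limma) and 0.89 in TM (SE 0.055, adjusted p = 5.90e-08 from limma). Adamts9 has 6 probe sets, and over these the log2 difference from WT was 0.75 to 1.18 in DM and 0.42 to 0.89 in TM, so that the mean of the probe sets was not called in TM (0.58). Adamts15 and Adamts20 were dim on all 9 arrays.

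Among the other 8 ADAMTS genes 4 had a call in at least 1 comparison, namely Adamts6, Adamts7, Adamts10 and Adamts12. Adamts6 and Adamts10, which encode related proteins that associate with fibrillin microfibrils, moved in opposite directions in DM. Adamts6 was at 9.81, 9.86 and 9.94 on the WT arrays, 8.10, 8.07 and 8.27 on the DM arrays and 9.64, 9.60 and 9.80 on the TM arrays, with a log2 fold change of -1.73 in DM (SE 0.074, adjusted p = 1.63e-09 from limma), so that WT was 3.31-fold higher. It was higher in TM than in DM by 1.54 (adjusted p = 6.64e-09 from limma). Adamts10 was at 9.50, 9.63 and 9.53 on the WT arrays and 10.21, 10.16 and 10.24 on the DM arrays, and rose by 0.65 in DM (SE 0.059, adjusted p = 2.14e-06 from limma). With the arrays centred on their medians its rise was 0.58, under the fold limit.

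Adamts7 and Adamts12, whose products cleave cartilage oligomeric matrix protein, also parted. Adamts12 was at 7.82, 7.84 and 7.82 on the WT arrays, 7.43, 7.44 and 7.16 on the DM arrays and 9.44, 9.39 and 9.37 on the TM arrays. It rose by 1.57 in TM (SE 0.074, adjusted p = 4.26e-09 from limma), and the difference of 2.06 between TM and DM (SE 0.074, adjusted p = 3.90e-10 from limma), or 4.16-fold, was the largest between the mutants in the list. Adamts7 was at 9.20 ± 0.071 in WT, 9.67 ± 0.072 in DM and 9.05 ± 0.071 in TM, and was called only between the mutants, as lower in TM with a log2 fold change of -0.63 (adjusted p = 8.57e-06 from limma). Adamts17, a gene with 5 probe sets, had log2 fold changes of 0.13 in DM and 0.00 in TM, while Adamts16, Adamts18 and Adamts19 were dim on all 9 arrays.

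**Figure D4:**
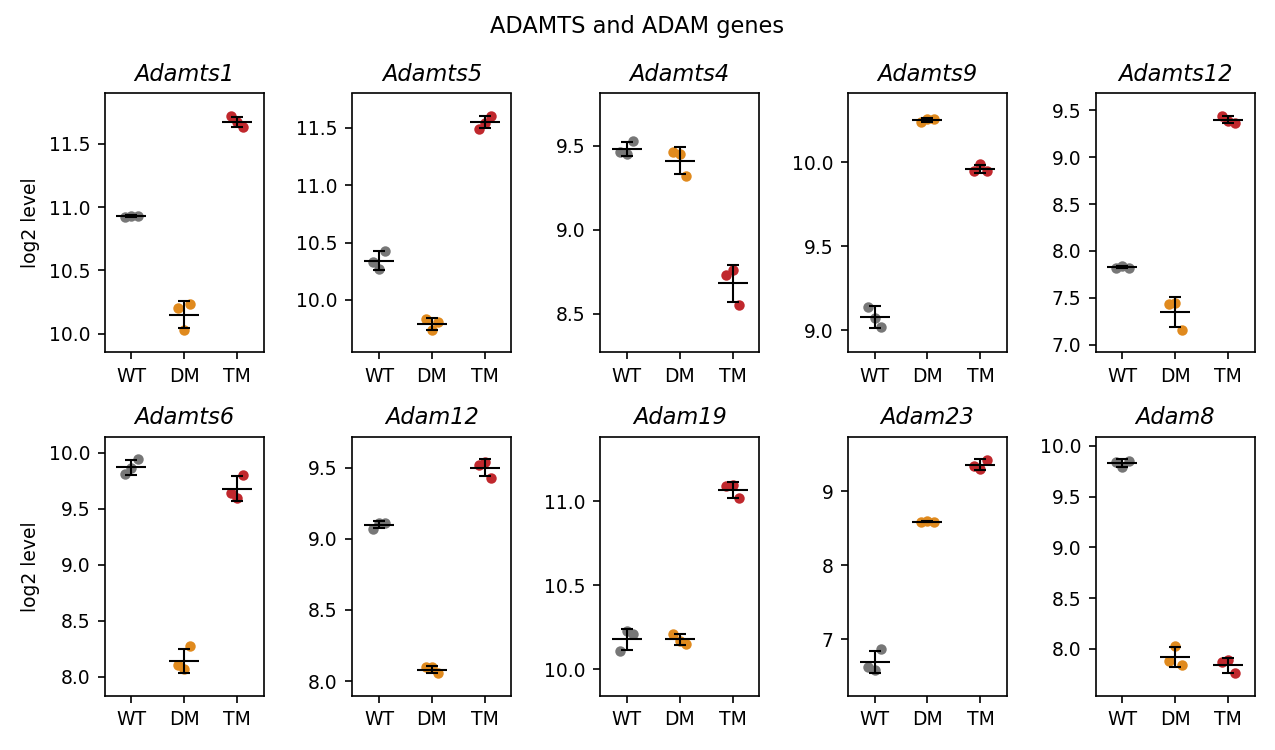
Log2 levels of 6 ADAMTS and 4 ADAM genes in WT (grey), DM (orange) and TM (red) MEFs. Each point is 1 array, with the mean as a horizontal mark and the SD as error bar (n = 3 arrays of each genotype), and each panel has its own y axis that does not start at 0. Adamts1, Adamts5, Adamts12 and Adam12 are lowest in DM and highest in TM, Adamts6 is low in DM, and Adam8 is low in both mutants.

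Set side by side, 9 genes were called in the same direction against WT in both mutants, namely Mmp16, Mmp23, Timp3, Reck, Adam23 and Adamts9 as higher and Mmp10, Adam8 and Adam33 as lower. Both comparisons use the same WT arrays. Calls in DM with none in TM were those of 8 genes, Mmp2, Mmp8, Mmp13, Adam10 and Adamts10 as higher and Timp1, Adam12 and Adamts6 as lower. Calls in TM with none in DM were those of 7 genes, Mmp19, Adam9, Adam19, Adamts5 and Adamts12 as higher and Mmp3 and Adamts4 as lower. For 10 of these 15 the direct comparison of TM with DM was called too, and it was not for Mmp2, Mmp19, Adam9, Adam10 and Adamts10. Of the 42 genes 16 had no call in any comparison, and 7 of these were dim on all 9 arrays.

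Genes that act on or with these proteases were counted from lists set up by role. Of 20 family genes outside the 43, 13 were dim on all 9 arrays, 2 were higher in DM and 3 in TM than in WT. They were Adam22 in both mutants, Adamts3, the gene of a procollagen N-proteinase, by 1.12 in DM, and in TM Adamtsl3 by 1.61 and Adamtsl1 by 1.05, which encode ADAMTS-like proteins without a protease domain. Of 7 genes of plasminogen activation, a cascade whose product plasmin activates several proMMPs, Plau and its receptor gene Plaur had log2 fold changes of -1.87 and -1.38 in DM and were higher in TM than in DM by 1.54 and 1.05. In TM against WT the tissue activator gene Plat was lower at -0.86, and Serpinb2, an inhibitor gene that is dim on all 9 arrays, was higher by 1.07.

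Of 4 genes of proprotein convertases, which cut the propeptides of membrane-type MMPs and ADAMs, Furin was lower in TM at -0.65. It had no call by cyclic loess normalization or without TM replicate 3. In DM Furin was at -0.55 against WT, under the fold limit, and TM against DM was at -0.10 without a call. Pcsk5 was higher in DM than in WT by 0.88. Of 9 partners of ADAM10 and ADAM17, the tetraspanin genes Tspan14 and Tspan5 were lower in DM at -1.02 and -0.71, and Tspan15 was lower in TM at -0.71. Rhbdf2, which encodes the ADAM17 partner iRhom2, was lower in TM than in DM with a log2 fold change of -0.93. Of 6 genes of MMP clearance and induction, Emb, which encodes embigin, a relative of the MMP inducer basigin, was higher in TM than in WT by 2.66, whereas Bsg, the basigin gene itself, and Lrp1, the gene of a receptor that clears MMPs and TIMPs, had log2 fold changes between -0.11 and 0.09 against WT. Ddr2, which encodes a collagen receptor tyrosine kinase, was lower in DM at -0.59, with no call by quantile normalization, by cyclic loess normalization, without WT replicate 3 or without DM replicate 1.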

How the data were processed

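The authors deposited 1 log2 value per probe set and array for 35556 probe sets, and the submitters' processing notes name RMA, which corrects background, normalizes arrays to each other and summarises probes. The study's methods describe triplicate RNA samples on Affymetrix Gene ST1.0 arrays and analysis with RMA and PLIER. PLIER values were not used here. In the platform annotation 21789 probe sets carry a single gene symbol, 1621 carry several and 12146 are unnamed. The brightest of each gene left 19938 genes, whose symbols were checked in the RefSeq table of GRCm38.p6. That table and its promoter windows gave gene order and sequence, since no source used here names the build of the array. The fit used all 9 arrays (limma 3.58.1, R 4.3.3) and left 6 residual degrees of freedom, and the scripts were tested on simulated data.

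The members and lists were chosen with earlier results of these data known. All members were accounted for. Up to 4 called genes of each other list were named, apart from the fibroblast markers, whose called genes against WT were all named. Bsg, Lrp1 and Fos were named after their values were seen. Array medians were 7.62 to 7.72, and a gene at or under them on all 9 arrays was called dim. The number of arrays limits the precision. Among the 42 genes 13 hold an identical value on at least 2 arrays, and Adamts18 on all 3 TM arrays, which understates its spread. Alternatives covered call rules, a Student's t-test per gene, fits of 6 arrays, a replicate block, scalings, a filter on dim genes, variance models, array weights, the mean of probe sets and leaving out each array.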

Additional observations from a re-analysis of the deposited data

Results flagged for a closer look

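The difference between the effects of the mutant genotypes drew attention in Adamts1, which was called lower in DM and higher in TM MEFs against the same WT arrays. The direct comparison of TM with DM gave a log2 difference of 1.52, with every TM array above every WT array and every DM array below them.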

How the results depend on the processing

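Of the 49 called differences of single genes, 43 were called under each of the 22 alternatives that kept the 1.5-fold limit, and in none of the 24 alternatives was a called direction reversed. The 6 others were Mmp2, Adamts10 and Adam33 in DM against WT, Adamts9 in TM against WT, and Mmp3 and Mmp8 in TM against DM, the last with an adjusted p of 0.068 by the Student's t-test. With a 2-fold limit, 6 genes were higher and 3 lower in DM than in WT, 6 higher and 2 lower in TM than in WT, and 5 higher and 0 lower in TM than in DM, where limma at an unadjusted p under 0.05 and 1.5-fold gave 6 lower. With no fold limit, 13 were higher and 13 lower in TM than in DM. Leaving out 1 array gave 11 higher and 6 to 8 lower in DM than in WT, 12 higher and 5 lower in TM than in WT, and 8 to 9 higher and 6 to 8 lower in TM than in DM. The deviations of arrays with the same replicate number had correlations of -0.239 to 0.168, with 1 of 9 over 0.1. Arrays with different numbers had correlations from -0.358 to 0.248. With such a spread these values cannot decide whether the numbers pair the arrays. With the replicate number as a block all 49 differences stayed called, with 11 higher and 7 lower in DM and 12 higher and 5 lower in TM against WT, and 8 higher and 6 lower in TM than in DM. Scaling moved the median of all genes by less than 0.1 on the log2 scale.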
